A study of Mus musculus with 8 samples.

Results

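Sarcomeric and smooth muscle actins and the proteins that act at the slow-growing ends of actin filaments were followed through 8 genes: the actins Actc1, Acta1 and Acta2, the leiomodins Lmod1, Lmod2 and Lmod3, and the tropomodulins Tmod1 and Tmod4. They were found by mouse symbol among the 54532 genes of the deposited tables, and all 8 had enough reads to be tested. The study profiled quadriceps RNA from mice aged 3 months on a chow diet. Knockout mice (MckCre Gpcpd1, 4 libraries) carried floxed Gpcpd1 on both alleles with the Mck-Cre transgene, and Control mice (4 libraries) carried the same floxed alleles without Cre. The muscle creatine kinase promoter drives Cre in differentiated striated muscle, so other cells of the tissue keep Gpcpd1, and the presence of Cre cannot be told apart from the loss of Gpcpd1. Gpcpd1 encodes a phosphodiesterase that releases choline from glycerophosphocholine. Each library is a whole-tissue sample, and nothing in the labels ties the libraries to separate mice. The p-values therefore cover only library-to-library spread, which may be technical.

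The thin filament of the sarcomere is a polymer of actin that is held in the Z-disc at its barbed end and faces the middle of the sarcomere with its pointed end. Tropomodulins cap that pointed end, and leiomodins, which are relatives of tropomodulins with additional actin-binding parts, start new filaments and allow existing ones to lengthen. Adult skeletal muscle fibres use skeletal alpha-actin (Acta1), the heart and embryonic skeletal muscle use cardiac alpha-actin (Actc1), and vascular smooth muscle uses Acta2. Many actin genes are switched on by serum response factor (SRF), which binds a short DNA sequence called the CArG box and is helped by the myocardin-related coactivators (MRTF).

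The windows around the start sites of the actin genes and of Lmod1 are shown because Actc1 and Lmod1 had the largest differences among the 8 genes and the other actins are their nearest comparison. Each window runs 5′ to 3′ on the gene's strand, from 250 bases before to 50 bases after the RefSeq start site on GRCm38.p6. Capitals mark exact matches to the CArG box. The windows lie at chr2:114052826-114053125 on the minus strand (Actc1), chr8:123894726-123895025 on the minus strand (Acta1), chr19:34255324-34255623 on the minus strand (Acta2) and chr1:135324563-135324862 on the plus strand (Lmod1).
Actc1: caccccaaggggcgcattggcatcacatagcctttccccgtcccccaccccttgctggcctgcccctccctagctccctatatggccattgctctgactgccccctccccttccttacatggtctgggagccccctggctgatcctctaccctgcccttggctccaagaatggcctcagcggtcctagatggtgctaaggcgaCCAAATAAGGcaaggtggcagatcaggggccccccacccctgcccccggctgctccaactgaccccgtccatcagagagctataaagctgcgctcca
Acta1: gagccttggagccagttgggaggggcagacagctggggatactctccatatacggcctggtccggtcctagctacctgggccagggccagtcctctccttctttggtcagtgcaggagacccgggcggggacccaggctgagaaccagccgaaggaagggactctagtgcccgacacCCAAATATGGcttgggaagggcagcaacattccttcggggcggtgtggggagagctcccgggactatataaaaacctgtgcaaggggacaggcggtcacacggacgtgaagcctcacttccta
Acta2: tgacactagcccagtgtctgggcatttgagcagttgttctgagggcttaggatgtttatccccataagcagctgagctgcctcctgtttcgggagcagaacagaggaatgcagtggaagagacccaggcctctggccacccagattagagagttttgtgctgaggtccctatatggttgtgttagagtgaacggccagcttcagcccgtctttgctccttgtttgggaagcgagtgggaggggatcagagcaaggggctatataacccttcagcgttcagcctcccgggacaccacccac
Lmod1: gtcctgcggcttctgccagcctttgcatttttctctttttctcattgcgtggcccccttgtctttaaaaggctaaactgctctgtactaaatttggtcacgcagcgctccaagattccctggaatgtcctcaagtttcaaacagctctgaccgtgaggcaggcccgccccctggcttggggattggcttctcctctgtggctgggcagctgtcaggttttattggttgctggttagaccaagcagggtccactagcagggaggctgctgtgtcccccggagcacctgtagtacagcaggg

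RefSeq windows were matched for 7 of the 8 genes, the exception being Lmod3. An exact CArG box was found at 1 place in Actc1 (CCAAATAAGG, starting at position -47) and at 1 place in Acta1 (CCAAATATGG, starting at position -73), counting the last base before the start site as -1. The other 5 windows held no exact match, while 1.63% of all 32851 windows of the same length held the motif, searched on both strands. Sequences 1 letter off the CArG box were not counted in any window. Examples are ccctatatgg in the Actc1 and Acta2 windows, ccttgtttgg in Acta2 and ctaaatttgg in Lmod1. The absence of an exact match is therefore not the absence of a CArG-like sequence. The CATTCC element occurred in 4 of the 7 windows (Acta1, Acta2, Lmod1 and Tmod1) and in 14.7% of all windows, and the E-box CANNTG in 6 of 7 and in 72.3% of all windows. TATAAA was present in the Actc1 window (starting at position 34, after the start site) and in the Acta1 window (position -7). It occurred in 13.6% of all windows, and a MEF2 site in 0 of the 7 and in 3.19%. All positions are counted from the RefSeq start site, whose place was not checked against other data. Matches of different motifs did not overlap each other in these windows. A match describes letters and not binding.

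Reads were counted near the 3′ end of transcripts (QuantSeq, a method that gives about 1 read per captured transcript end), so counts do not scale with transcript length by design and levels are compared between genes on that basis. The actin coding sequences are 82.5% to 86.2% identical to each other at the nucleotide level over 1134 bases. The last 300 bases of the longest annotated protein-coding transcript of each of the 8 genes shared 0 of 251 windows of 50 bases with transcripts of any other gene in GENCODE M21. The 3′ end of Tmod1 overlaps an exon of Tstd2 on the opposite strand. The strand setting of the counting is not given in the sources used here, so the Tmod1 count is uncertain in that respect.

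Library totals ran from 4806806 to 5405999 reads in knockouts and from 4404116 to 5183079 in controls. Gpcpd1 averaged 35.1 ± 3.45 CPM (read counts scaled to library size with TMM factors) in knockouts and 149.7 ± 10.7 CPM in controls (SD, n = 4 each), with the limit that 3′ reads can lie outside the floxed part. Markers of skeletal muscle fibres (8 listed genes) summed to between 148863 and 154718 CPM in knockouts and between 143269 and 157792 CPM in controls, and of these Myh4, a fast myosin, was lower (log2 fold change -0.31, SE 0.09, edgeR adjusted p = 0.0128). Macrophage markers were lower in knockouts for 3 of 5 tested genes (Csf1r, C1qb and Cd163), and Dcn was lower among 5 fibroblast markers. Endothelial, adipocyte and Schwann cell markers had 0 called genes. Over the 10691 genes tested with edgeR, 15.7% had an adjusted p under 0.05, 8.87% being higher and 6.8% lower in knockouts. The genotypes did not overlap in 19.2% of them.

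Of the 8 genes, 5 (62.5%) were higher in knockouts and 0 lower, against 8.87% higher and 6.8% lower of all tested genes. In the same 5 the groups did not overlap, against 19.2% of all tested genes. These were both striated muscle actins (Actc1 and Acta1) and all leiomodins, whereas Acta2, Tmod1 and Tmod4 did not pass the test. The median log2 fold change of the 8 was 0.34, against 0.01 over all tested genes. The genes were picked with earlier results of these data in view, so this share is a description. The call for Acta1 held in 1 of the 8 fits that left out a library, and those for Actc1, Lmod1 and Lmod3 held in all 8. Without knockout 1, 4 of the 8 genes were higher and 1 lower, the lower one being Acta2.

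**Figure D1:**
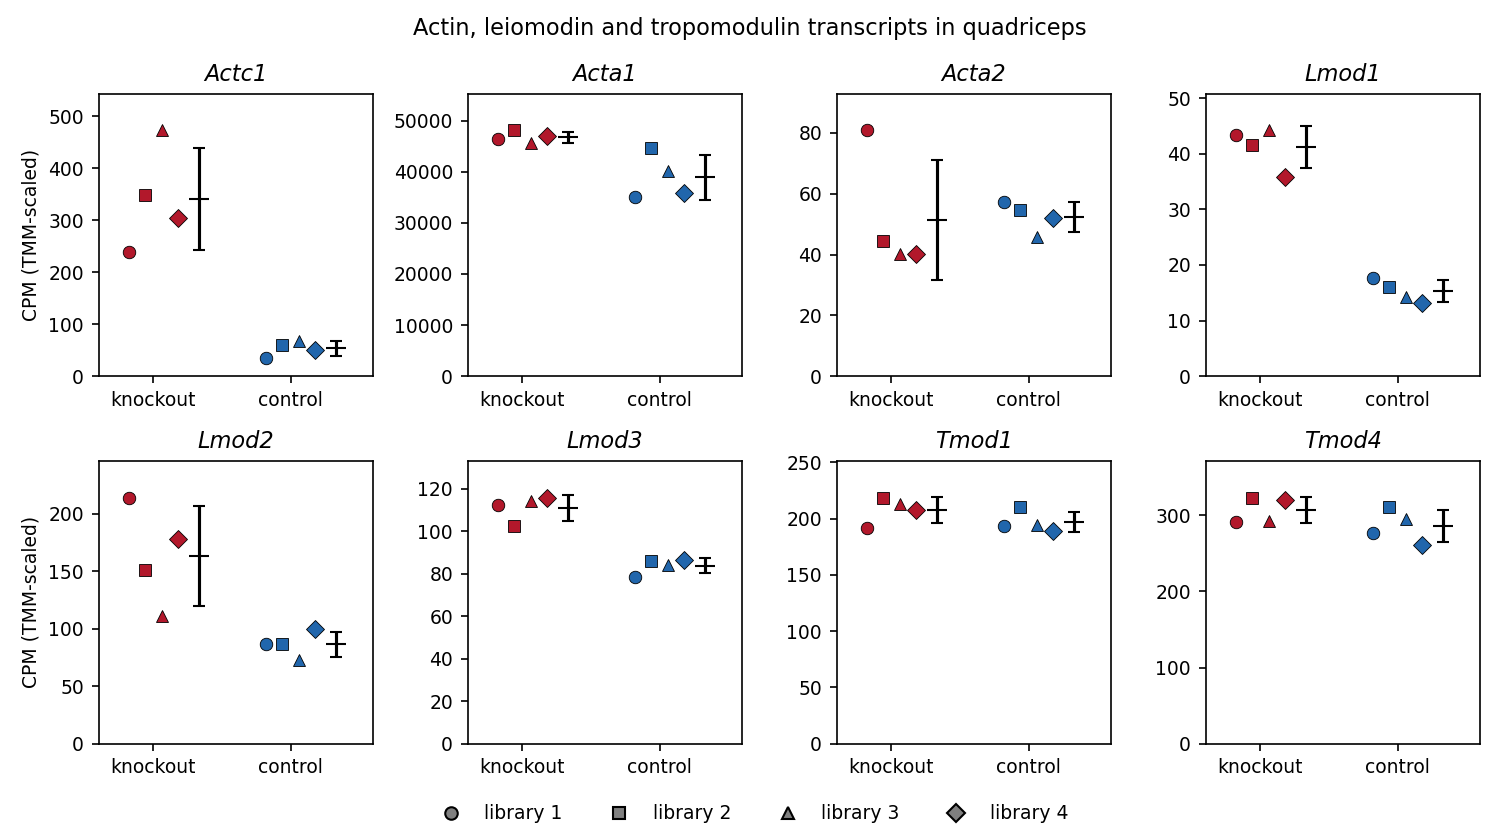
TMM-scaled CPM of each gene (vertical axes, each starting at 0) in the 4 knockout and the 4 control libraries, with one symbol per library and the group mean ± SD as a bar. Actc1 and Lmod1 stand clearly apart between genotypes, Tmod1 and Tmod4 overlap, and knockout 1 lies above every other library for Acta2.

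Actc1 (ENSMUSG00000068614, GRCm38 chromosome 2, 114047282 to 114053548, minus strand), the cardiac and embryonic alpha-actin, rose the most. It had 239, 348, 473 and 305 CPM in knockouts 1 to 4, against 34.5, 60.4, 67.7 and 50.9 CPM in controls 1 to 4. Every knockout was above every control, and knockout 3 was the highest. The corresponding reads were 1141, 1820, 2544 and 1430 in knockouts and 160, 298, 346 and 242 in controls. Means were 341 ± 98.4 CPM in knockouts and 53.4 ± 14.4 CPM in controls (SD, n = 4 each). The log2 fold change was 2.67 (SE 0.29, edgeR adjusted p = 0.00107). Across the 17 alternative settings the log2 fold change of Actc1 ran from 2.47 to 2.80, and it was called in each.

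Acta1 (ENSMUSG00000031972, chromosome 8, 123891769 to 123894751, minus strand), the actin of adult skeletal fibres, ranked 3 among the tested genes by mean CPM. Its level was 46330.3, 48074, 45509.7 and 46897 CPM in knockouts 1 to 4, against 35009, 44599.5, 40076 and 35872 CPM in controls 1 to 4. The lowest knockout was only slightly above the highest control, and the controls spread more widely than the knockouts. Means were 46703 ± 1077 CPM in knockouts and 38889 ± 4403 CPM in controls, a log2 fold change of 0.26 (SE 0.09, edgeR adjusted p = 0.0495). That call was lost without knockout 1 (adjusted p = 0.0566), knockout 2 (0.126), knockout 3 (0.0903), knockout 4 (0.136), control 1 (0.133), control 3 (0.112) or control 4 (0.115). Without control 2 the adjusted p was 0.0064, and over all alternatives it ran from 0.0064 to 0.136.

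Actc1 was a small part of the striated actin reads in both genotypes. It made up 0.513%, 0.718%, 1.03% and 0.646% of the reads of Actc1 and Acta1 together in knockouts 1 to 4, against 0.0983%, 0.135%, 0.169% and 0.142% in controls 1 to 4. The groups did not overlap in this share. Exact (Clopper-Pearson) 95% intervals, which cover counting error only, were 0.484% to 0.544% in knockout 1, the lowest knockout, and 0.151% to 0.188% in control 3, the highest control. Summed CPM of both genes averaged 47044 ± 1045 in knockouts and 38943 ± 4414 in controls.

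Acta2 (ENSMUSG00000035783, chromosome 19, 34241090 to 34255590, minus strand), the actin of vascular smooth muscle, had 80.9, 44.3, 40.3 and 40.3 CPM in knockouts 1 to 4, against 57.3, 54.7, 45.8 and 52.1 CPM in controls 1 to 4. Knockout 1 was above all controls and the other 3 knockouts were below all controls. Means were 51.4 ± 19.7 CPM in knockouts and 52.5 ± 4.92 CPM in controls (log2 fold change -0.03, SE 0.23, edgeR adjusted p = 0.951), with a 95% interval of -0.56 to 0.50. Without knockout 1 the log2 fold change of Acta2 was -0.34 and passed the test (adjusted p = 0.0302), and over the alternatives the adjusted p ran from 0.0302 to 0.987. Knockout 1 also had the highest summed level of vascular smooth muscle markers among the knockouts, 253 CPM against 194 to 207 CPM in the other 3. Control 2 had nearly the same sum (252.8 CPM) with 54.7 CPM of Acta2. Mylk alone was the largest part of both sums, with 134 CPM in knockout 1 and 146 CPM in control 2. The part of the marker level in the Acta2 level of knockout 1 was not tested. In whole tissue, fewer cells of a type and less RNA per cell cannot be told apart.

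Lmod1 (ENSMUSG00000048096, chromosome 1, 135324807 to 135368065, plus strand), the leiomodin best known from smooth muscle, had the lowest p of the 8 genes. Knockouts 1 to 4 held 43.4, 41.6, 44.2 and 35.8 CPM, against 17.7, 16.0, 14.3 and 13.2 CPM in controls 1 to 4. The groups were far apart and each was tight. In reads these were 207, 218, 238 and 168 in knockouts and 82, 79, 73 and 63 in controls, well above a floor of 3 reads. Lmod1 averaged 41.3 ± 3.77 CPM in knockouts and 15.3 ± 1.94 CPM in controls, a log2 fold change of 1.43 (SE 0.12, edgeR adjusted p = 1.26e-08), and it ran from 1.37 to 1.51 over the 17 alternatives.

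Vascular smooth muscle markers were read beside Lmod1. Of 7 listed markers, 6 were tested and 0 passed in either direction, with a median log2 fold change of -0.14. Their summed level was 193.9 to 253.3 CPM in knockouts and 202.8 to 252.8 CPM in controls, so the groups overlapped. Myh11, the smooth muscle myosin heavy chain, had a log2 fold change of -0.23 (SE 0.15, edgeR adjusted p = 0.358) and smoothelin (Smtn) 0.29 (SE 0.10, adjusted p = 0.0571), with no overlap of the groups for Smtn, which passed when only genes with at least 5 CPM in 4 libraries were tested. Actg2 was not tested and had at most 0.631 CPM in a library. Pericyte markers, another wall cell of small vessels, summed to 448.5 to 560.1 CPM in knockouts and 497.2 to 545.6 CPM in controls, and 0 of 6 passed.

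**Figure D2:**
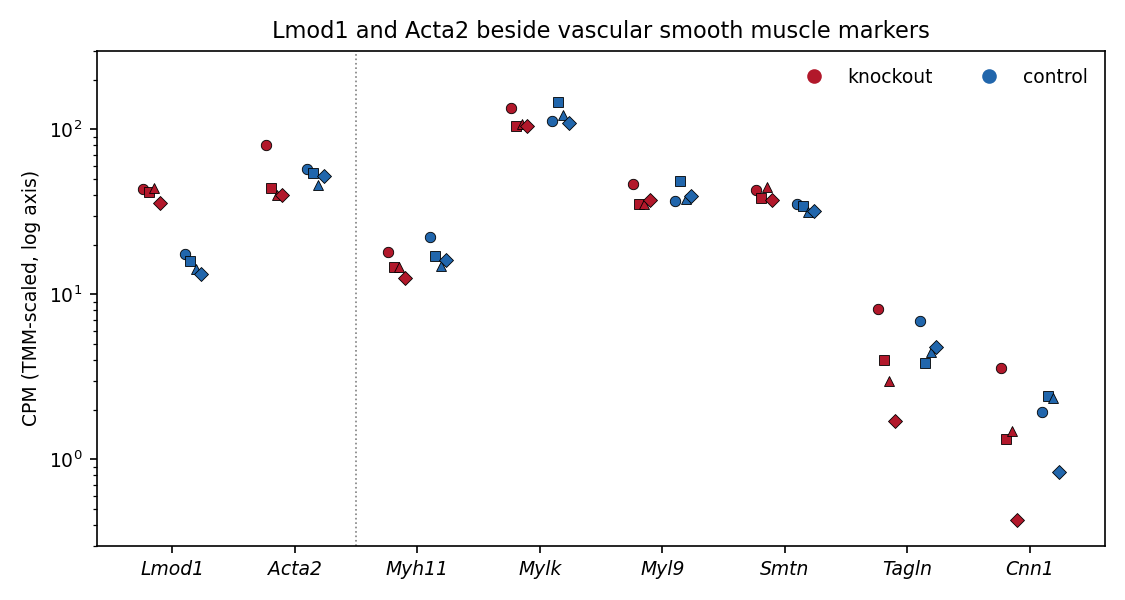
TMM-scaled CPM on a log axis of Lmod1, Acta2 and 6 tested vascular smooth muscle markers in each knockout (left, red) and control (right, blue) library; circles, squares, triangles and diamonds are libraries 1 to 4. Of the plotted genes, Lmod1 alone passed edgeR's test under the default low-count filter, and Smtn passed as well where at least 5 CPM in 4 libraries was required.

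Lmod2 (ENSMUSG00000029683, chromosome 6, 24597762 to 24605414, plus strand), the leiomodin of heart and skeletal muscle that lengthens thin filaments, had 214, 151, 111 and 178 CPM in knockouts 1 to 4, against 86.8, 87.0, 72.4 and 99.4 CPM in controls 1 to 4. All knockouts lay above all controls, with knockout 3 closest to them. Means were 164 ± 43.5 CPM in knockouts and 86.4 ± 11.0 CPM in controls (log2 fold change 0.92, SE 0.19, edgeR adjusted p = 0.00887). The call ended without control 2 (adjusted p = 0.0545), although the log2 fold change was then 0.91, and over all alternatives the adjusted p ran from 6.65e-15 to 0.0545.

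Lmod3 (ENSMUSG00000044086, chromosome 6, 97238534 to 97252759, minus strand), whose human counterpart is mutated in a form of nemaline myopathy, rose by less but evenly. It had 112, 102, 114 and 116 CPM in knockouts 1 to 4, against 78.4, 85.9, 84.2 and 86.2 CPM in controls 1 to 4. Both groups were narrow and did not overlap. Lmod3 averaged 111 ± 6.09 CPM in knockouts and 83.7 ± 3.63 CPM in controls, a log2 fold change of 0.41 (SE 0.08, edgeR adjusted p = 0.00134).

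The balance between the sarcomeric leiomodins varied between knockouts. Lmod2 made up 65.6%, 59.7%, 49.3% and 60.7% of the reads of Lmod2 and Lmod3 in knockouts 1 to 4, against 52.5%, 50.3%, 46.2% and 53.6% in controls 1 to 4. The share in knockout 3 was within the control range and the other knockouts were above it. Summed CPM of the pair averaged 275 ± 44.4 in knockouts and 170.1 ± 12.3 in controls, without overlap.

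Tmod1 (ENSMUSG00000028328, chromosome 4, 46038935 to 46116032, plus strand) and Tmod4 (ENSMUSG00000005628, chromosome 3, 95124476 to 95129209, plus strand), the pointed-end caps of striated muscle, overlapped between genotypes. Tmod1 had 192, 218, 213 and 208 CPM in knockouts 1 to 4, against 193, 210.0, 195 and 189 CPM in controls 1 to 4. Tmod4 had 291, 323, 292 and 319.8 CPM in knockouts 1 to 4, against 277, 310.3, 295 and 261 CPM in controls 1 to 4. The log2 fold change was 0.08 for Tmod1 (SE 0.08, 95% interval -0.09 to 0.25, edgeR adjusted p = 0.574). For Tmod4 it was 0.10 (SE 0.08, 95% interval -0.07 to 0.27, edgeR adjusted p = 0.467). These upper bounds were below the fitted changes of Actc1, Lmod1, Lmod2 and Lmod3, a comparison of single values without a test of the difference. Tmod1 made up 39.4% to 42.2% of the reads of both tropomodulins in knockouts and 39.7% to 42.0% in controls.

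The order of the levels differed between genotypes mainly through Actc1. In knockouts Acta1 was followed by Actc1 (239 to 473 CPM) and Tmod4 (291 to 323 CPM), whose ranges overlapped, then by Tmod1, Lmod2 and Lmod3, with Lmod2 (111 to 214 CPM) overlapping both of its neighbours, and last by Acta2 and Lmod1, which overlapped each other. In controls Acta1 was followed by Tmod4 and Tmod1, whose ranges were separate. Lmod2 and Lmod3 came next and overlapped, as did Actc1 (34.5 to 67.7 CPM) and Acta2 (45.8 to 57.3 CPM), and Lmod1 was the lowest. Together the 8 genes held 4.68% to 4.78% of all reads in knockouts and 3.77% to 4.32% in controls, nearly all of it Acta1.

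Variation within a genotype was described by the correlation of log2 CPM deviations from each genotype's mean over the 8 libraries. Actc1 and Lmod2, both higher in knockouts, had an r of -0.76. Among the knockouts, knockout 1 was highest for Lmod2 and lowest for Actc1, and knockout 3 was the reverse. The highest r among the 28 pairs was 0.82, for Acta1 and Tmod4. Among 6297 other genes with a mean of at least 10 CPM, those most like Actc1 by this measure were Fam120a (r = 0.94), Mtmr4 (0.94), Pdp1 (0.93), Angptl2 (0.93) and Rom1 (0.92). For Acta1 they were Mrpl24 (r = 0.99), Serhl (0.98), Tnfaip1 (0.97), Tmem205 (0.97) and Fam213b (0.97). With 8 points that share library preparation and depth, these r values describe the libraries only.

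**Figure D3:**
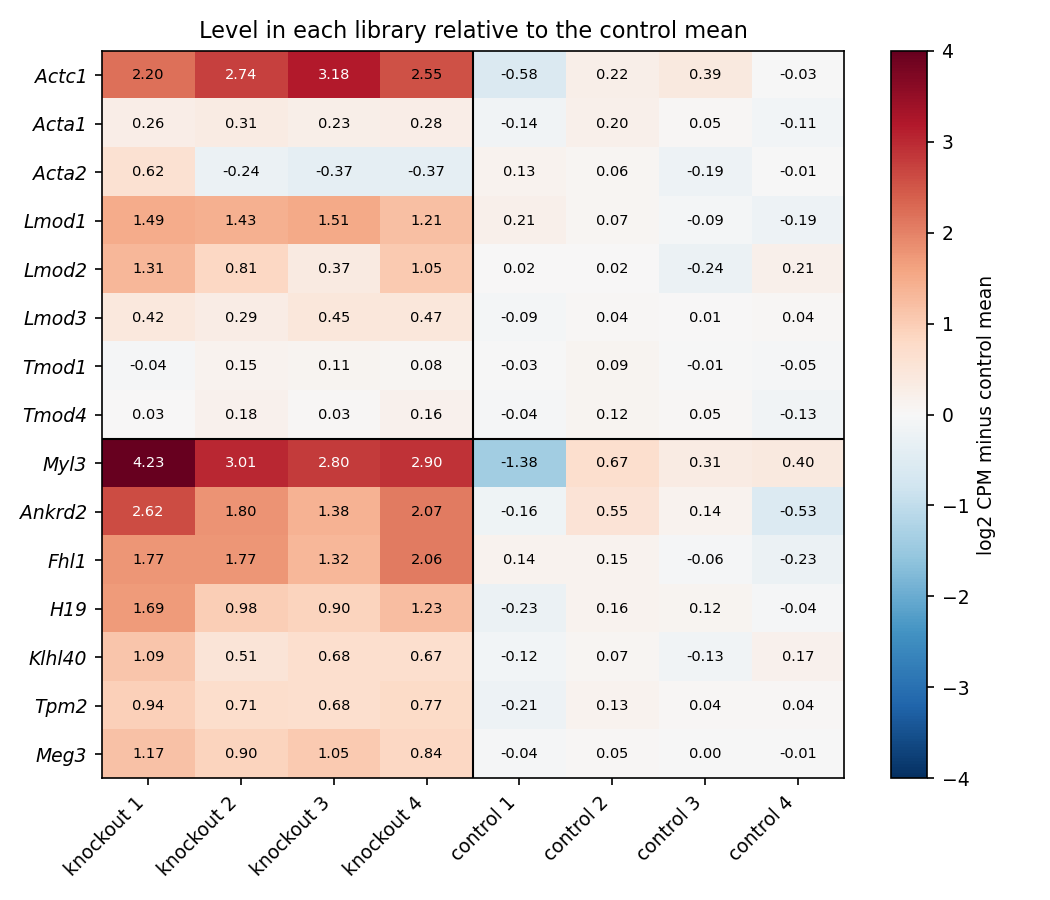
Log2 CPM minus the control mean for each gene (rows) in each library (columns, knockouts left of controls); red is above and blue below the control mean, and the values are printed in the cells. Actc1 stands 2.20 to 3.18 above the control mean in knockouts. Knockout 1 has the highest value for Acta2, Lmod2, Myl3, Ankrd2, H19, Klhl40, Tpm2 and Meg3.

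Other actins and tropomodulins did not pass the test. Of 5 listed genes 3 were tested, and 0 passed: Actb, a cytoplasmic actin, averaged 807 ± 158 CPM in knockouts and 718 ± 87.3 CPM in controls (log2 fold change 0.17, SE 0.12, edgeR adjusted p = 0.389). Tmod2, a tropomodulin of neurons, had a log2 fold change of -0.07 (SE 0.17, adjusted p = 0.836). Actg1, the other cytoplasmic actin, had 1 read in the 4 knockouts and 2 in the 4 controls and was not tested. How reads that map to several places were counted is not given in the sources used here.

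Among genes for thin filament assembly, capping and turnover, 3 of 23 tested members of a list of 26 were higher and 0 lower, 13.0% against the 15.7% of all genes. Klhl40, which stabilises Lmod3 and nebulin in mouse muscle, averaged 419 ± 76.5 CPM in knockouts and 249 ± 25.6 CPM in controls (log2 fold change 0.75, SE 0.11, edgeR adjusted p = 4.8e-05). Klhl41, a related Kelch protein that binds nebulin, rose by 0.29 on the log2 scale (SE 0.08, adjusted p = 0.0167), a call lost without knockout 4 (0.0590) or control 1 (0.0681), with adjusted p between 0.00755 and 0.0681 over the alternatives. Xirp1, an actin-binding protein of sites of muscle remodelling, had a log2 fold change of 1.20 (SE 0.27, adjusted p = 0.0160). The Xirp1 call was lost without control 1 (0.0610), control 2 (0.0511), control 3 (0.0653) or control 4 (0.0744) and by limma voom (0.0681), and its adjusted p ran from 6.40e-11 to 0.0744. Nebulin (Neb), the filament-length scaffold, had a log2 fold change of -0.12 (SE 0.08, adjusted p = 0.401). Without knockout 1 the list had 5 genes higher and 1 lower. The list's median was -0.00.

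Of the troponins and tropomyosins, which regulate the thin filament, 1 of 7 tested members of 11 was higher and 0 lower, 14.3% called against 15.7% of all genes. Tpm2, a tropomyosin, averaged 5633 ± 458 CPM in knockouts and 3295 ± 322 CPM in controls (log2 fold change 0.77, SE 0.09, edgeR adjusted p = 1.51e-06). The fast troponin I gene Tnni2 had a log2 fold change of 0.27 (SE 0.10, adjusted p = 0.0656). It passed without knockout 1 (0.0476) or control 2 (0.00595), as it did with library totals alone, with totals without the 20 most abundant genes, with no low-count filter and by limma voom, and the list then had 2 higher. Its adjusted p reached 0.191 without knockout 4. The list's median was 0.13.

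In the list of SRF and MRTF pathway genes and targets, 3 of 26 tested members of 30 were higher and 1 lower, 15.4% against 15.7% of all genes, with a median log2 fold change of 0.01. Fhl1, a LIM-domain protein of muscle, averaged 511 ± 105.0 CPM in knockouts and 152 ± 18.5 CPM in controls (log2 fold change 1.75, SE 0.14, edgeR adjusted p = 4.15e-07). Ankrd2, a stretch-responsive protein of slow fibres, averaged 194 ± 71.1 CPM in knockouts and 48.8 ± 15.6 CPM in controls (1.99, SE 0.35, adjusted p = 0.0109). Ccn2, a secreted matricellular protein, had a log2 fold change of 0.96 (SE 0.28, adjusted p = 0.0227), a call lost without knockout 2 (0.0617), knockout 3 (0.0850), knockout 4 (0.0549), control 2 (0.0666) or control 3 (0.0787), with adjusted p from 0.00119 to 0.0850 over the alternatives. Rock2 was lower (-0.33, SE 0.09, adjusted p = 0.0102), and without knockout 2 the list had 2 lower. With DESeq2 and with edgeR without robust estimation 5 members of the list were higher. Srf itself averaged 1.78 ± 0.858 CPM in knockouts and 1.65 ± 0.308 CPM in controls and was not tested. Of the coactivator genes, Mrtfa had a log2 fold change of 0.40 (SE 0.16, edgeR adjusted p = 0.107), and its groups overlapped. Mrtfb had a log2 fold change of 0.21 (SE 0.09, adjusted p = 0.143), without overlap of the groups. Ankrd1 (1.47, SE 0.40, edgeR adjusted p = 0.0585) and Csrp3 (2.02, SE 0.68, adjusted p = 0.109) did not pass, although their groups did not overlap. The groups did not overlap in 6 of the 26 tested members, against 19.2% of all genes, and 14 of the 26 had a log2 fold change above 0.

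Genes of developing and regenerating muscle had 5 of 10 tested members of 14 higher and 0 lower, 50% called against 15.7% of all genes, with a median of 0.51. By DESeq2, without knockout 3 or without control 2, 4 were higher. Meg3 (log2 fold change 1.00, SE 0.09) and H19 (1.23, SE 0.17) are imprinted non-coding genes, Cdkn1a (1.26, SE 0.18) encodes a cell cycle inhibitor and Myh8 (0.96, SE 0.17) the perinatal myosin, and the highest of their edgeR adjusted p was 0.000496. Chrna1, a subunit of the acetylcholine receptor, also passed (0.60, SE 0.17, adjusted p = 0.0184). The embryonic myosin gene Myh3 and the myogenic factor Myog, which rise in regenerating fibres, did not pass. Myh3 had a log2 fold change of 0.04 (SE 0.34, adjusted p = 0.960), and Myog averaged 7.03 ± 1.17 CPM in knockouts and 6.87 ± 1.21 CPM in controls. Of the 10 tested members 9 had a log2 fold change above 0. The exception was the myogenic factor Myod1 (-0.48, SE 0.23, edgeR adjusted p = 0.182). Satellite cell markers summed to 21.6 to 31.1 CPM in knockouts and 24.3 to 29.8 CPM in controls, with 0 of 2 tested members passing and Myf5 at most 0.646 CPM. Earlier results of these data were known when all 16 lists were chosen, this list and the slow fibre list included, so their counts are no independent evidence.

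Markers of cardiac muscle were at or near 0 in both genotypes. Nppa, Nppb and Myl7 had 0 reads in all 8 libraries and Myh6 at most 0.557 CPM in knockouts and 0.608 CPM in controls. The 6 markers summed to 3.63 to 5.45 CPM in knockouts and 1.72 to 4.46 CPM in controls, most of it Myl4, which had a log2 fold change of 0.42 (SE 0.28, edgeR adjusted p = 0.356).

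The slow fibre list had 2 higher and 0 lower among 6 tested of 10 genes, 33.3% called against 15.7% of all genes, with a median of 0.83. Myl3, a light chain of slow and ventricular myosin, had 398, 171, 148 and 158 CPM in knockouts 1 to 4, against 7.75, 33.4, 26.0 and 27.7 CPM in controls 1 to 4 (log2 fold change 3.20, SE 0.53, edgeR adjusted p = 0.00916). Casq2, a calsequestrin of slow and cardiac muscle, rose by 0.56 on the log2 scale (SE 0.14, adjusted p = 0.00556). Other members did not pass. Myh2, a fast myosin included in this list, had a log2 fold change of 1.46 (SE 0.41, edgeR adjusted p = 0.0644). Its lowest knockout (541 CPM) was just above its highest control (536 CPM). Tnnt1 had a log2 fold change of 1.09 (SE 0.89, adjusted p = 0.495) and Tpm3 one of -0.03 (SE 0.16, adjusted p = 0.921). Atp2a2, the calcium pump of slow and cardiac muscle, had a log2 fold change of -0.14 (SE 0.17, edgeR adjusted p = 0.647). The slow myosin gene Myh7 had 17, 2, 2 and 2 reads in knockouts 1 to 4, against 0, 7, 1 and 16 reads in controls 1 to 4, and was not tested. By DESeq2, by edgeR without robust estimation and without control 2, 3 members of the list were higher. Slow fibre transcripts were unevenly spread over the libraries. Tnnt1, the slow troponin T, had 81, 14, 25 and 18 reads in knockouts 1 to 4, against 2, 31, 7 and 23 reads in controls 1 to 4. Myl2 had 45 reads in knockout 1 and at most 6 in the other knockouts, against at most 4 in a control. Knockout 1 was also the highest knockout for Lmod2 and Acta2, though not for Actc1. Among the 8 genes and those named from the lists, 18 were higher in knockouts. Knockout 1 was the highest knockout for 12 of these 18, and knockout 3 was the lowest knockout for 11. The same counts were not made over all tested genes, so a trait of the whole library cannot be told apart from one of these genes. The part of fibre composition in these differences was not tested.

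**Figure D4:**
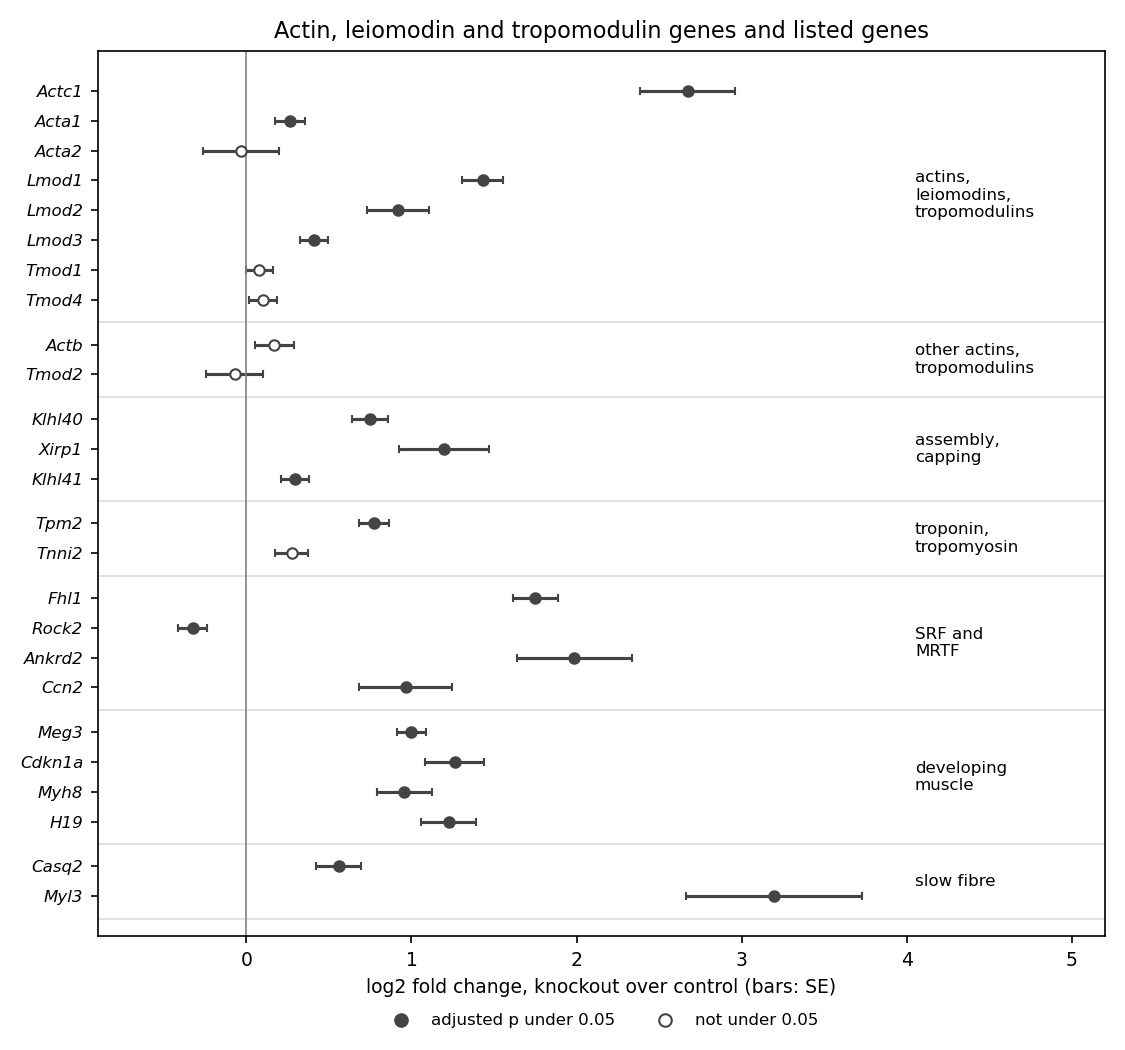
Log2 fold change of knockout over control (horizontal axis) with its SE for the 8 actin, leiomodin and tropomodulin genes (top) and for genes named from 6 lists; filled points passed an adjusted p of 0.05. Actc1 (2.67) and Myl3 (3.20) are farthest from 0, and Rock2 (-0.33) is the only plotted gene below 0 that passed.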

How the data were processed

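Quadriceps RNA was sequenced by QuantSeq 3′ FWD in 8 libraries. Each deposited table holds unnormalized read counts by Ensembl gene for 1 library, per the file headers. Bowtie2 2.3.4.1, Subread 1.6.2, featureCounts and the builds GRCm38 and mm10 appear in the submitters' processing notes. Annotation release, strand and multi-mapping settings were not given in the sources used here. Symbols came from GENCODE M21 (54409 of 54532 genes matched). Groups follow the genotype label and replicates are numbered in accession order.

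Counts were tested with edgeR 4.0.16 in R 4.3.3 (filterByExpr with minimum count 10 and minimum total 15, leaving 10691 genes; TMM; robust quasi-likelihood F test; Benjamini-Hochberg over all tested genes, threshold 0.05). The SE was obtained from the log2 fold change and the root of its F statistic, and 95% intervals use the t distribution of the fit. A floor of 3 reads equals 0.555 to 0.681 CPM. The fit was tested on simulated data, but the outcome is not reported here. No pair of libraries agreed within sampling noise (chi-square per degree of freedom at least 2.33). Alternatives used DESeq2 1.42.0, limma 3.58.1 (voom), other scalings and filters, and each library left out.

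The 8 genes, the 16 lists and the tests were chosen with earlier results of these data known. Named genes are Gpcpd1, the 8 genes, up to 4 passing genes of lowest p per functional list (2 as values where fewer than 2 passed) and the 5 genes most like Actc1 and Acta1. Marker list genes and other genes given with values (Neb, Srf, Mrtfa, Mrtfb, Ankrd1, Csrp3, Myh3, Myog, Myod1, Chrna1, Myh2, Tnnt1, Tpm3, Myl2, Myh7, Atp2a2, Actg1) were added after their values were seen.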

Additional observations from a re-analysis of the deposited data

Results flagged for a closer look

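In knockouts the gap between knockout 1 and the nearest other library was large against the range of the group for a pair of genes. For Acta2 the ratio of gap to range was 0.902, with 80.9 CPM in knockout 1 and 40.3 to 44.3 CPM in the other knockouts. For Myl3 the ratio was 0.907, with 398 CPM in knockout 1 and 148 to 171 CPM in the others. The limit for 4 libraries was 0.829, and 64 groups were examined, of which chance alone marks about 1 in 20. Both results come from the same library.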

How the results depend on the processing

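Actc1, Lmod1, Lmod3 and Gpcpd1 kept their direction and their side of the threshold under all 17 alternatives, and Tmod1 and Tmod4 stayed above an adjusted p of 0.05. The Acta1 call was lost with RLE scaling (0.25, adjusted p = 0.0586), upper quartile scaling (0.25, 0.0628) and without robust estimation (0.26, 0.0570). With 1 library left out, the log2 fold change ran from 0.22 to 0.32 for Acta1, from 0.76 to 1.07 for Lmod2, from -0.34 to 0.071 for Acta2 and from -0.21 to 0.043 for Tmod2. Acta2 turned positive without knockout 2 (0.03), knockout 3 (0.071), knockout 4 (0.06) or control 1 (0.01), none of these past the threshold, and Tmod2 without knockout 2 (0.0033) or control 1 (0.043). The fits with 1 library left out have fewer libraries, whereas those with RLE scaling, upper quartile scaling and without robust estimation used every library. The cause of these changes was otherwise not tested. The number of genes called ran from 1307 to 1835, against 1675, and 47.9% (library totals alone) to 58.1% of calls were higher in knockouts, against 56.6%. Listed genes called higher numbered 12 to 18, against 14. No paired analysis was possible because replicate numbers were given in accession order and pair no libraries. Srf, Actg1 and most cardiac markers had too few reads to be tested; the cause was not tested.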
